A study of Mus musculus with 5 samples.

Results

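The genes described here are the axon guidance ligands and receptors of mouse white adipose tissue: semaphorins, plexins, neuropilins, Slits, Robos, netrins, Unc5 receptors, ephrins and Eph receptors. They were chosen by name alone, as all symbols of classes 3 to 7 of the semaphorins and of the plexin, neuropilin, Slit, Robo, netrin, Unc5, ephrin and Eph families that had at least 20 UMIs (unique molecular identifiers, each standing for 1 captured transcript molecule) over the series. The name patterns matched 71 of 32285 listed genes, and 66 of these were members: 20 semaphorins, 11 plexin entries, 2 neuropilins, 3 Slits, 3 Robos, 3 netrins, 4 Unc5 receptors, 7 ephrins and 13 Eph receptors. Epha8, Efna3, Ntn5, Robo3 and the antisense entry Plxna4os2 had under 20 UMIs. Plxna4os1 and Plxna4os3, which were members, are antisense transcripts inside the Plxna4 locus, and their counts are uncertain because the counting of strand and introns was not stated.

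Single-nucleus RNA sequencing (3′ ends of transcripts in droplets) was made from 5 white fat depots of 10-week-old male mice on a chow diet, to build an atlas of their cell types. SWAT is the subcutaneous depot, EWAT the epididymal, NWAT the fat around the kidney, MWAT that of the mesentery and HWAT that around the heart. Each depot is 1 library of pooled tissue, from 6 mice for SWAT, EWAT and NWAT, 10 for MWAT and 20 for HWAT. All mice were perfused with heparin, none is labelled as carrying a mutation or transgene, and lymph nodes were dissected from SWAT and MWAT. The protocol gives C57BL/6J for every depot, while the strain field has that name only on SWAT and EWAT. There MWAT carries C57BL/7J, HWAT carries C57BL/9J and NWAT carries C57BL/8J. With 1 library per depot there is no replicate and no test between depots: intervals are 95% intervals of counting error, and variation between mice or dissections was not measured.

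Cell classes were rebuilt by clustering, without the member genes, and named from marker genes; a name such as FAP-like (fibro-adipogenic progenitor, the stromal cell that includes fat cell precursors) means that and no more. Libraries held 23313545 to 43855063 UMIs, and 11094 to 16642 nuclei each were kept. Any pair of libraries shared 40 to 87 barcodes, at most 0.601% of the smaller one. Summed marker levels were above those of the other compared classes for 5 of 6 lists, from adipocyte markers (9825 to 13114 CPM, counts per 1e6 counts of the class, against at most 5667 elsewhere) to mesothelial markers (5908 to 7556 against at most 623). FAP markers overlapped, at 10812 to 17005 CPM in FAP-like and 7519 to 11928 CPM in mesothelial-like nuclei. MWAT stood apart by smooth muscle-like, interstitial cell of Cajal-like and neuron-like nuclei and by gut lining transcripts in every class (282 to 393 CPM in its 6 compared classes, at most 5.49 CPM in those of the other depots). HWAT stood apart by B cell-like nuclei (2520 of 11268) and by thermogenic adipocyte-like nuclei. Its pericyte-like nuclei were few (54, or 0.479%), a share close to that of EWAT (0.514%) and MWAT (0.577%). SWAT had 1 mesothelial-like nucleus and was left out for that class.

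Semaphorins signal through plexins, with neuropilins as co-receptors for most secreted class 3 semaphorins; Slits signal through Robos, netrins through Dcc and Unc5 receptors, and membrane-bound ephrins through Eph receptor kinases on the neighbouring cell. The families were found through their steering of growing axons, and they also shape blood and lymph vessels, in which Efnb2 and Ephb4 mark the arterial and venous side. In fat, Slit2 and Slit3 have been studied as secreted signals linked to thermogenesis.

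A member was counted as led by a class when that class exceeded the next by 2 times or more in every library in which it had at least 50 nuclei, and 4 of 62 members with enough counts met this, where 4.31% of 18300 genes did. Slit2, a secreted Robo ligand, was led by FAP-like nuclei. Robo4 (the endothelial Robo), Ephb4 (the venous Eph receptor) and Plxna2 (a receptor for class 3 and 6 semaphorins) were led by endothelial-like nuclei. The strict count rested on HWAT, whose pericyte-like class had 54 nuclei. There the floor of 3 counts, to which fewer counts were set in a ratio, was 41.7 CPM. Of these nuclei 46 (85.2%) lay in a cluster with the haemoglobin genes Hba-a1 and Hba-a2 among its leading genes. The same cluster held 37.1% of the pericyte-like nuclei in SWAT, 11.1% in EWAT, 24.0% in MWAT and 43.3% in NWAT. What this does to the pericyte-like values was not tested. Without HWAT 10 members were led by a class. Leaving out a library makes the rule easier to meet for any gene, and the share over all genes was not computed for it. Without the fold condition, a member had only to be highest in the same class in every library with at least 50 nuclei of it. For mesothelial-like nuclei this meant 4 libraries, without SWAT. In this way 32 of 62 members qualified, where 31.7% of all genes did. These were 11 in endothelial-like nuclei (Efna1, Efnb2, Epha4, Ephb4, Nrp2, Plxna2, Robo4, Sema3g, Sema6a, Sema6b, Sema7a), 10 in mesothelial-like nuclei (Efna2, Efna5, Efnb3, Epha1, Ephb1, Ephb6, Plxna4, Plxna4os3, Sema3c, Sema5a), 5 in macrophage-like nuclei (Plxna4os1, Plxnb2, Plxnc1, Sema4a, Slit1), 4 in FAP-like nuclei (Ephb3, Sema6c, Slit2, Slit3) and 1 each in adipocyte-like (Unc5a) and pericyte-like nuclei (Sema5b). The place of Sema5b rests on only 9 pericyte-like counts over 5 libraries.

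**Figure D1:**
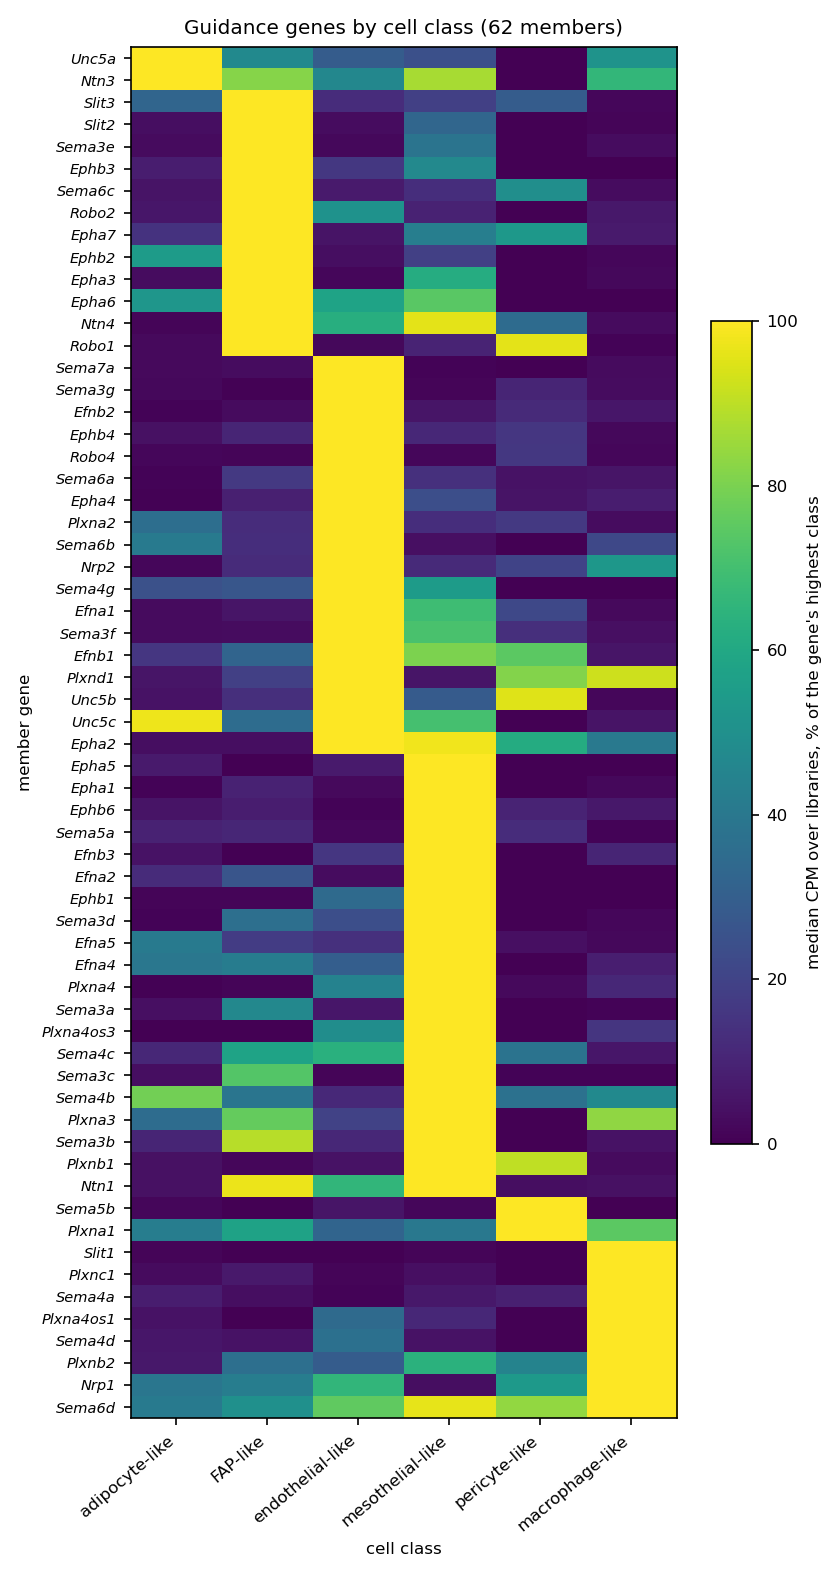
Median level over the libraries (CPM) of the 62 members with enough counts in 6 marker-defined cell classes, as a percentage of each gene's own highest class (colour); rows are genes, columns classes. Yellow marks the highest class of each gene, and genes such as Nrp1 and Ntn1 are bright in more than 1 class.

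The promoters of the endothelial-led members are shown because these genes share the class in which they are highest. They are the 300 bases from 250 before to 50 after the start of transcription, from RefSeq (GRCm38.p6), 5′ to 3′ on the plus strand of the genome, which is the strand of all 3 genes. Capitals mark AGGAAG or its reverse complement CTTCCT, letters bound by ETS factors, or AGATAA and TTATCT, letters bound by GATA factors. Robo4 (chr9:37401722-37402021) held 1 ETS match, while Ephb4 (chr5:137349859-137350158) and Plxna2 (chr1:194619579-194619878) held none, and no GATA match was present in any of them. The ETS letters were in 35.4% of all 32817 promoters of this length, in 27 of 70 promoters of members (38.6%) and in 4 of 12 promoters of the members highest in endothelial-like nuclei (33.3%), so these shares were close to the background. The GATA letters were in 11.2% of all promoters, in 3 of 70 promoters of members (4.29%) and in 0 of the 12.
Robo4: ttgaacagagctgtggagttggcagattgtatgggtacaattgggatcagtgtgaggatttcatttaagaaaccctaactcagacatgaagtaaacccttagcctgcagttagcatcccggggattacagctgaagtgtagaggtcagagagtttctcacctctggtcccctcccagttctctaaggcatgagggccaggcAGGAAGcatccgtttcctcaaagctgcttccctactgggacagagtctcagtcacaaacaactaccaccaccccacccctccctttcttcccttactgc
Ephb4: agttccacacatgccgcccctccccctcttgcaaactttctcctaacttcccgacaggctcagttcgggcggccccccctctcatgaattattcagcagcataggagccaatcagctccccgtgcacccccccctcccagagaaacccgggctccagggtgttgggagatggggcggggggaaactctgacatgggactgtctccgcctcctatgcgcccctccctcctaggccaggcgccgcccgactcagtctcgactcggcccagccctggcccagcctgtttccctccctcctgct
Plxna2: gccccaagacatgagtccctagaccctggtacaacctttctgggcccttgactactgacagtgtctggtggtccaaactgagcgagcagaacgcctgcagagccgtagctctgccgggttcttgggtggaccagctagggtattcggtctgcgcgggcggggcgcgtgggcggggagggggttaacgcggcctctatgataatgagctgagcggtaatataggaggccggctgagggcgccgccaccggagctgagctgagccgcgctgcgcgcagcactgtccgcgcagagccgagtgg

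Slit2 (GRCm38 chr5:47983138-48307733) stood at 84.7 CPM in SWAT, 449 in EWAT, 695 in MWAT, 88.9 in NWAT and 213 in HWAT FAP-like nuclei. The next class was mesothelial-like in EWAT, MWAT and NWAT, where FAP-like nuclei were 4.47 (3.93 to 5.09), 2.43 (2.22 to 2.67) and 2.21 (1.70 to 2.90) times higher. EWAT and MWAT were thus high in both stromal and lining cells. Slit3 (chr11:35121224-35708507), its secreted relative, was at 2674, 3850, 3438, 2883 and 2029 CPM in FAP-like nuclei in the same order of depots. It was also measured in adipocyte-like nuclei, at 942, 1966, 649, 1307 and 198 CPM, so FAP-like nuclei were highest in every library but by under 2 times in EWAT. In pericyte-like nuclei Slit3 was at 837, 1992, 493, 1112 and 639 CPM. Slit1 was a macrophage-like transcript, at 22.9, 20.9, 12.6, 20.5 and 3.69 CPM, with at most 0.518 CPM in the other compared classes.

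The Robo receptors differed in their highest class. Robo4 (chr9:37401897-37415115) was at 124, 178, 107, 189 and 112 CPM in endothelial-like nuclei, and the classes other than pericyte-like had at most 5.12 CPM. Its ratio to the next class was 4.35 to 8.19 outside HWAT, where it was 2.68 with an interval (0.875 to 13.4) that includes 1. In EWAT (8.19) and HWAT (2.68) the next class, pericyte-like, had 0 counts of Robo4, set to 3, so both ratios rest on that floor. Robo1, which binds Slit2 and Slit3, was highest in FAP-like nuclei of SWAT, MWAT and NWAT (178, 241 and 277 CPM) and in pericyte-like nuclei of EWAT and HWAT (369 and 111 CPM). The HWAT pericyte-like value rests on few counts, as 3 counts were 41.7 CPM in these 54 nuclei. Adipocyte-like, endothelial-like and macrophage-like nuclei had at most 11.5 CPM of Robo1. Robo2 was at 80.9 CPM in MWAT FAP-like nuclei and at most 17.6 CPM in those of the other depots. It was at 4077 CPM in the unnamed clusters of MWAT, of which 2 (278 nuclei) had Robo2, Pdgfra and Kcnn3 among their leading genes.

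**Figure D2:**
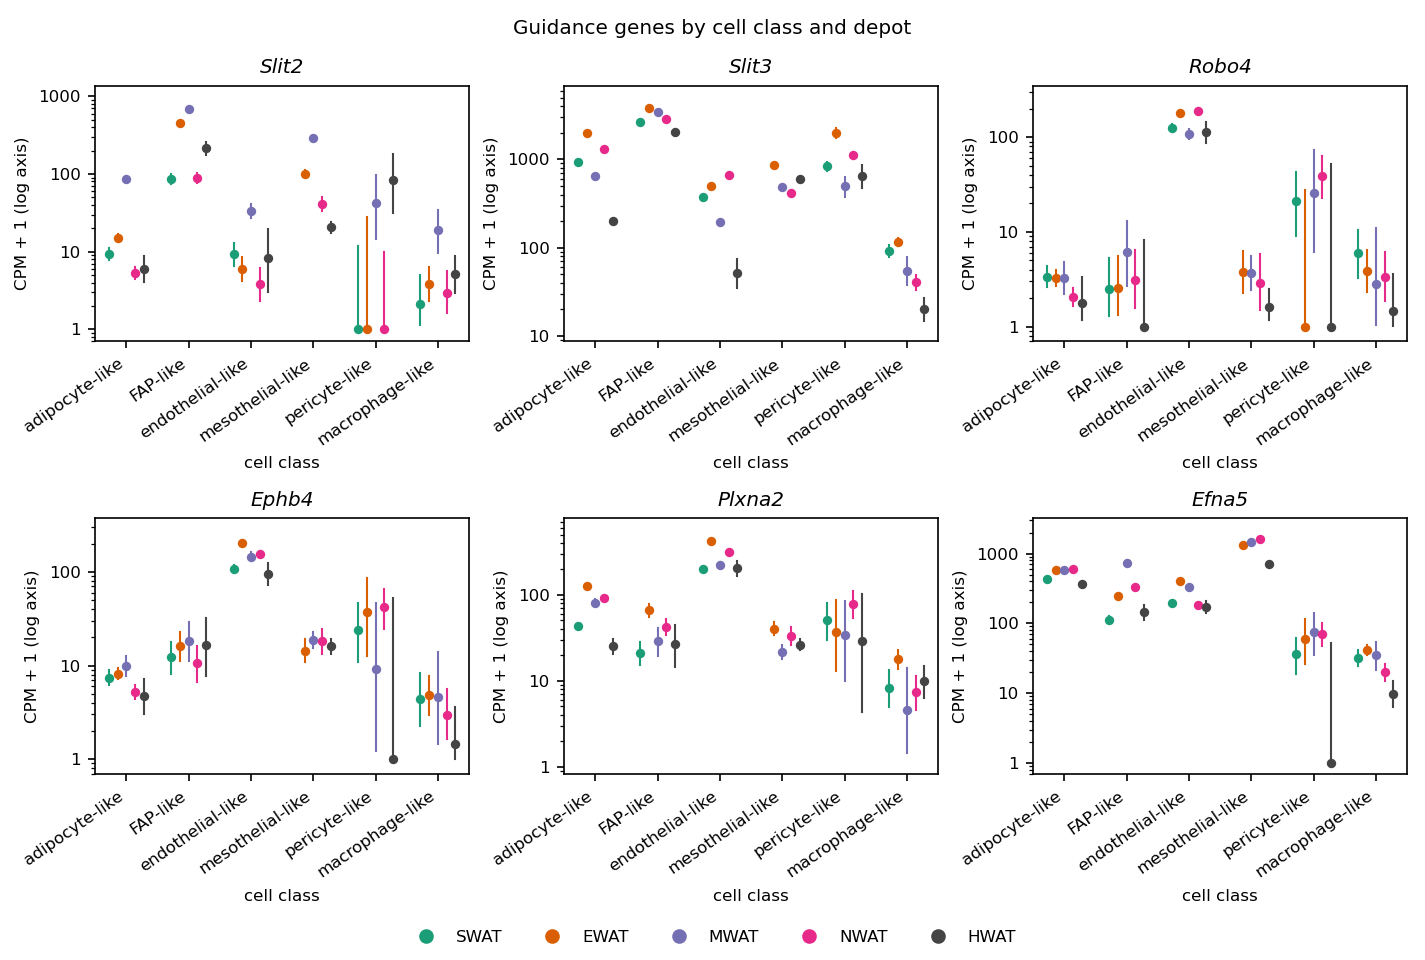
CPM + 1 (log axis) of 6 members in 6 cell classes, 1 point per library of at least 50 nuclei, coloured by depot, with 95% Poisson intervals of counting error. Slit2 and Slit3 are highest in FAP-like nuclei, Robo4, Ephb4 and Plxna2 in endothelial-like nuclei, and Efna5 in mesothelial-like nuclei.

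Among the secreted class 3 semaphorins, Sema3c was highest in mesothelial-like nuclei, at 812, 660, 706 and 285 CPM in EWAT, MWAT, NWAT and HWAT. It stood at 171, 501, 521, 526 and 227 CPM in FAP-like nuclei of the 5 depots and at most 33.5 CPM in adipocyte-like, endothelial-like and macrophage-like nuclei. Sema3a, the ligand of Nrp1 that repels sensory and sympathetic axons, was at 246, 216, 249 and 67.1 CPM in mesothelial-like and at 200, 43.0, 16.4, 163 and 108 CPM in FAP-like nuclei. Endothelial-like nuclei had 14.2, 49.5, 91.5, 8.04 and 11 CPM, which was above the FAP-like level in EWAT and MWAT. Mesothelial-like nuclei were highest in EWAT, MWAT and NWAT, and FAP-like nuclei in SWAT and HWAT. Sema3e, the ligand that binds Plxnd1 without a neuropilin, was highest in FAP-like nuclei outside MWAT (19.7, 104, 87.3 and 17.6 CPM in SWAT, EWAT, NWAT and HWAT) and in mesothelial-like nuclei in MWAT (61.2 against 27.6 CPM). Sema3d ranged from 24.8 to 256 CPM in mesothelial-like and from 20.2 to 126 CPM in FAP-like nuclei. Sema3g was an endothelial-like transcript at 48.8, 86.9, 69.9, 97.4 and 53.1 CPM, with at most 23.2 CPM in any other compared class. Sema3f was shared by endothelial-like (33.6 to 78.0 CPM) and mesothelial-like nuclei (38.4 to 60.6 CPM).

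Of the membrane semaphorins, Sema6a was at 539, 842, 692, 992 and 348 CPM in endothelial-like nuclei, and Sema7a, a GPI-anchored semaphorin that binds integrins and Plxnc1, at 29.2, 46.1, 30.6, 40.2 and 32.9 CPM. Sema5a was highest in mesothelial-like nuclei, at 1052, 1265, 1036 and 412 CPM. Sema4a was highest in macrophage-like nuclei at 165, 155, 163, 222 and 58.6 CPM. Sema4d, the ligand of Plxnb1 known from lymphocytes, was at 16.2 to 37.7 CPM in macrophage-like nuclei and at 72.3 to 188 CPM in T or NK cell-like nuclei. Its B cell-like level was 87.2 CPM in HWAT, the library with most of these nuclei. Sema4f had no count in any class among adipocyte-like, mesothelial-like and pericyte-like nuclei, and was one of 4 members with too few counts for the class comparison, with Plxnb3, Unc5d and Epha10.

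Of the receptors, Nrp1, which also binds Vegfa, was broad: 251 to 639 CPM in macrophage-like, 260 to 841 in endothelial-like, 222 to 499 in pericyte-like, 176 to 331 in FAP-like and 189 to 263 in adipocyte-like nuclei. Mesothelial-like nuclei had 15.4 to 41.8 CPM of Nrp1, below every other class in every library. Nrp2 was highest in endothelial-like nuclei, at 271, 369, 321, 356 and 190 CPM, followed by macrophage-like nuclei at 169, 215, 113, 194 and 76.2 CPM. Plxna2 (chr1:194618218-194816869) was at 198, 425, 220, 315 and 201 CPM in endothelial-like nuclei, 2.75 to 4.83 times the next class. The 4.83 was in HWAT, against 2 pericyte-like counts set to 3. Plxna4 was highest in mesothelial-like nuclei (1171, 993, 1199 and 582 CPM) and next in endothelial-like nuclei (290, 742, 555, 479 and 267 CPM). Plxnd1 was shared by endothelial-like (54.9 to 103 CPM), pericyte-like (36.0 to 94.2) and macrophage-like nuclei (24.0 to 101), whose ranges overlapped. Plxnc1 was a macrophage-like transcript among the 6 classes (69.3, 98.5, 68.3, 69.8 and 42.9 CPM, at most 9.79 in the others), and B cell-like nuclei had 74.4 to 104 CPM. Plxnb1 was at 23 to 41.9 CPM in mesothelial-like and 2.90 to 65.2 CPM in pericyte-like nuclei, the latter on at most 12 counts in a library, while the macrophage-like nuclei that had its ligand Sema4d showed at most 3.59 CPM.

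Of the netrin ligands, Ntn1 was at 71.9, 129, 179, 79.2 and 66.6 CPM in FAP-like, at 118, 77.1, 86.4 and 13.5 CPM in mesothelial-like and at 42.7, 154, 169, 53.8 and 49.4 CPM in endothelial-like nuclei. The 3 classes overlapped. Ntn4, a netrin of basement membranes, ranged from 9.36 CPM in SWAT to 126 CPM in EWAT in FAP-like nuclei. Ntn3 was at 1.90 to 3.45 CPM in adipocyte-like nuclei, its highest class in SWAT, NWAT and HWAT. In FAP-like nuclei, its highest class in EWAT and MWAT, it was at 0.985 to 4.09 CPM. There 3 counts were 1.48 CPM in SWAT and 3.07 CPM in MWAT, so the order of these classes is uncertain. Unc5b, the vascular netrin receptor, was at 9.24 to 26.6 CPM in endothelial-like and 13.9 to 26.4 CPM in pericyte-like nuclei. The pericyte-like range rests on only 25 counts over 5 libraries. Adipocyte-like nuclei held Unc5c in all depots (25.0, 24.1, 6.21, 14.3 and 4.49 CPM), at the highest level of the 6 classes in SWAT, EWAT and NWAT. Unc5a was highest in adipocyte-like nuclei in every library, at 4.23 to 9.08 CPM.

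Among the ephrins, Efna5 (chr17:62604184-62881317) was at 1330, 1453, 1640 and 705 CPM in mesothelial-like nuclei, and adipocyte-like nuclei were next in 3 of these 4 depots, with 571, 572, 591 and 360 CPM in EWAT, MWAT, NWAT and HWAT. The exception was MWAT, where FAP-like nuclei reached 742 CPM. Its receptor Epha3 was at 162, 53.9, 241, 15 and 52.9 CPM in FAP-like nuclei and 28.2, 52.9, 38.8 and 1.33 CPM in mesothelial-like nuclei, so in NWAT the mesothelial-like level was the higher. Efnb2, the arterial ligand, was at 89.8, 163, 176, 117 and 64.0 CPM in endothelial-like nuclei. Ephb4 (chr5:137350109-137378669), its receptor, was at 107, 205, 145, 154 and 95.2 CPM in the same class, 3.78 to 5.88 times the next class outside HWAT and 2.28 (0.740 to 11.4) times in HWAT. The next class was pericyte-like, with 1 count in MWAT (5.88 times) and 0 in HWAT, both set to 3. Efna1 and Epha4 were also highest in endothelial-like nuclei, with 59.2 to 85.4 and 64.0 to 127 CPM. Ephb2 was at 11.3 to 47.0 CPM in FAP-like and 5.81 to 17.8 CPM in adipocyte-like nuclei, with at most 6.22 CPM in the other compared classes. Ephb1 and Ephb6 were highest in mesothelial-like nuclei, at 15.3 to 74.7 and 17.4 to 30.4 CPM.

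Within endothelial-like nuclei, the members separated vessel types. Sub-clusters named arterial-, capillary- and venous-like could be compared in SWAT, EWAT, MWAT and NWAT and a lymphatic-like one in EWAT and MWAT, while 328 of 405 HWAT nuclei lay in an unnamed sub-cluster led by Igkc and Scgb1a1, and none of its named sub-types had 50 nuclei. For 13 of 40 members the lowest library of 1 sub-type was above every library of the other sub-types (32.5%), where 15.5% of 12060 genes did so. Efnb2 was at 286, 318, 306 and 367 CPM in arterial-like nuclei of SWAT, EWAT, MWAT and NWAT, against 31.5, 66.0, 116 and 10.6 CPM in venous-like nuclei. Ephb4 ran the other way, with 47.7, 97.1, 68.0 and 89.7 CPM in arterial-like and 200, 322, 163 and 301 CPM in venous-like nuclei. The ratios were 2.64 to 34.7 for Efnb2 (arterial over venous) and 2.39 to 4.20 for Ephb4 (venous over arterial), and the 95% counting interval was above 1 in each of the 4 libraries for both. Lymphatic-like nuclei had both genes, with 288 and 278 CPM of Efnb2 and 170 and 222 CPM of Ephb4.

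The neuropilins also divided the vessel types. Nrp2 was at 13.9 to 43.7 CPM in arterial-like, 225 to 250 CPM in capillary-like, 463 to 899 CPM in venous-like and 491 to 586 CPM in lymphatic-like nuclei. Nrp1 was highest in capillary-like nuclei (726, 1136, 967 and 1174 CPM), 2.48 to 3.29 times the arterial-like level. Its venous-like level was 356, 683, 186 and 889 CPM, a range that overlapped the capillary-like one, and it was at 36.3 and 9.27 CPM in lymphatic-like nuclei. Sema3g, an arterial cue, was at 259, 310, 340 and 438 CPM in arterial-like nuclei, 4.76 to 10.7 times the capillary-like level, with at most 4.99 CPM in venous-like nuclei. Efna5 was also highest in arterial-like nuclei, at 1116, 1669, 748 and 1076 CPM against 20.4 to 53.7 CPM in capillary-like, 29.3 to 66.0 in venous-like and 116 to 237 in lymphatic-like nuclei. Slit3 in the endothelial-like class was a capillary transcript, at 832, 1090, 729 and 1345 CPM and 3.95 to 8.54 times the arterial-like level. In lymphatic-like nuclei, Sema3a was at 514 (EWAT) and 489 CPM (MWAT) and Sema3d at 578 and 621 CPM, with at most 16.9 and 18.0 CPM in the other sub-types. Ntn1 was at 790 and 600 CPM in lymphatic-like nuclei, 3.64 (3.02 to 4.40) and 4.58 (3.07 to 7.08) times the arterial-like level. The venous-like nuclei held Plxnb2 at 50.9 to 71.5 CPM, above the 30.7 CPM of any other sub-type. The remaining members of the 13 were Sema4g and Efnb1 (capillary-like), Sema4d and Unc5b (lymphatic-like), and Sema5b and Unc5c (venous-like).

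**Figure D3:**
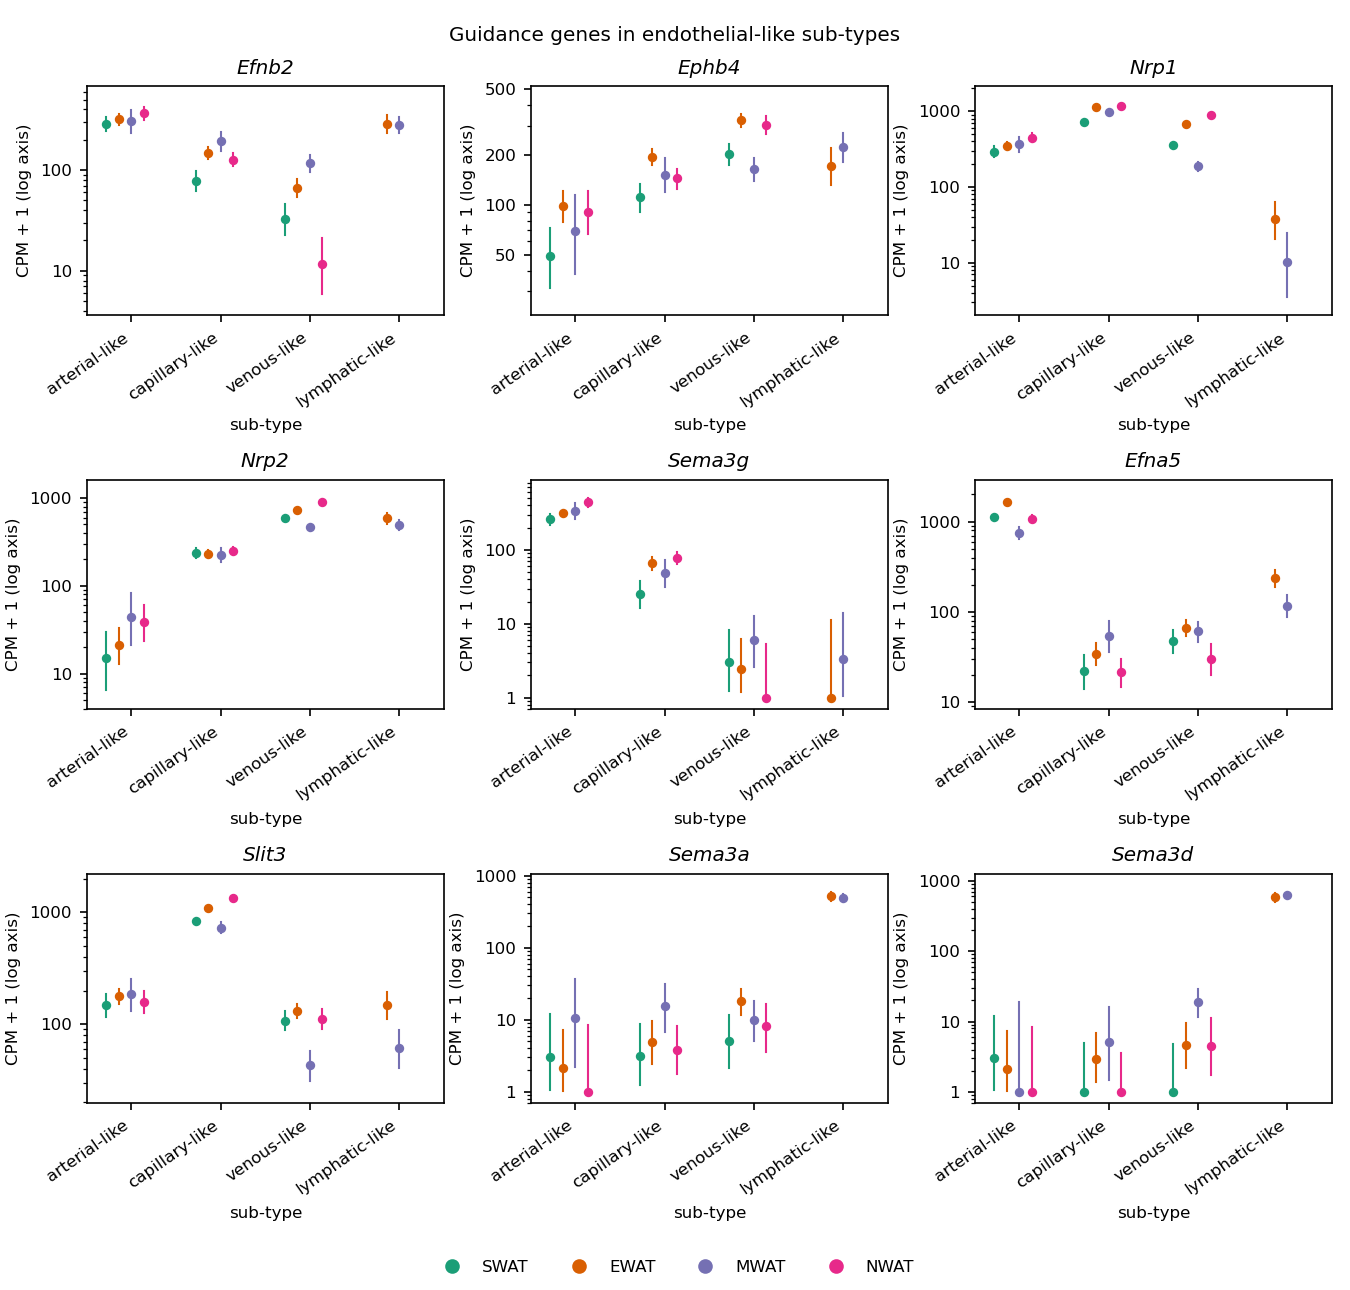
CPM + 1 (log axis) of 9 members in 4 endothelial-like sub-types, 1 point per library with at least 50 nuclei of the sub-type, coloured by depot, with 95% Poisson intervals of counting error. Efnb2, Sema3g and Efna5 are highest on the arterial side, Ephb4 and Nrp2 low there, Slit3 and Nrp1 highest in capillary-like and Sema3a and Sema3d in lymphatic-like nuclei.

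FAP-like nuclei were divided into a Dpp4-like sub-type (markers of interstitial progenitors such as Dpp4 and Pi16) and a committed-like one (markers of preadipocytes). For 10 of 32 members (31.2%) the libraries of the 2 sub-types did not overlap, where 11.7% of 11705 genes did so. Sema3c was at 939, 1507, 1632 and 1725 CPM in Dpp4-like nuclei of SWAT, EWAT, MWAT and NWAT, and at 76.1, 181 and 184 CPM in committed-like nuclei of SWAT, EWAT and NWAT. The ratio was 12.3 (9.75 to 15.7), 8.34 (7.18 to 9.72) and 9.36 (8.11 to 10.8). Sema3e had the same split, at 166, 363, 118 and 363 CPM against 5.52, 23.2 and 8.51 CPM. The co-receptor Nrp1 ran the other way, with 80.5, 163, 166 and 143 CPM in Dpp4-like and 257, 321 and 271 CPM in committed-like nuclei. Efna5, Ntn1, Robo1 and Sema4c were also higher in Dpp4-like nuclei and Epha4, Sema5a and Sema6d in committed-like nuclei, Robo1 by only 1.03 times between its lowest Dpp4-like and its highest committed-like library. Only 40 MWAT and 6 HWAT nuclei were committed-like: 725 MWAT FAP-like nuclei lay in an unnamed sub-cluster whose leading genes included Gal, Reg3b, Actg2 and Robo2.

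**Figure D4:**
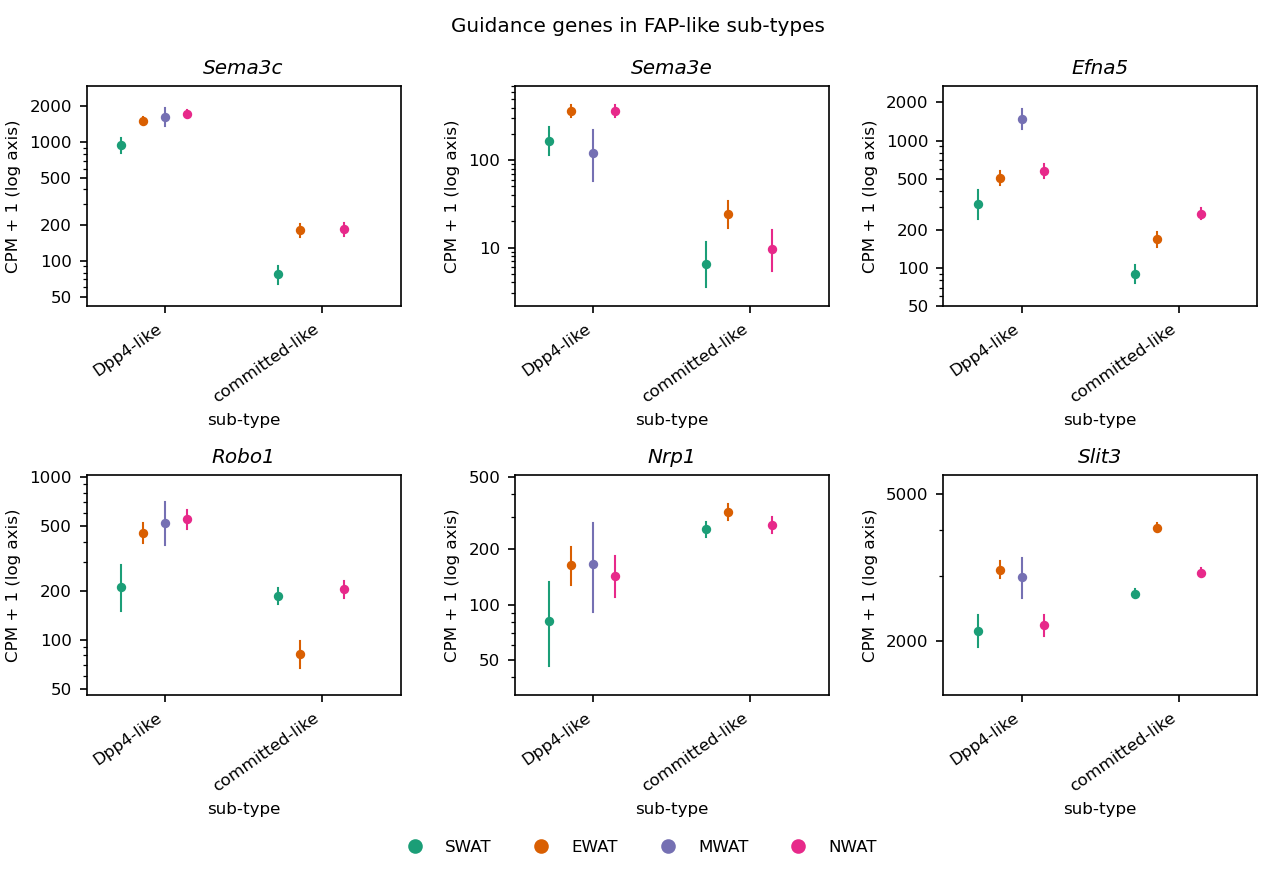
CPM + 1 (log axis) of 6 members in the 2 FAP-like sub-types, 1 point per library with at least 50 nuclei, coloured by depot, with 95% Poisson intervals of counting error. Sema3c and Sema3e are higher in every Dpp4-like library than in any committed-like one, and Nrp1 is lower; the ranges of Slit3 overlap.

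Depots were then compared within each class. A member was called when its highest depot was at 2 times the next or more, or its lowest at 2 times below the next, with the counting interval of the ratio clear of 1. Different clusters held most adipocyte-like nuclei of each depot (75 to 95% in 1 cluster, a different one in each), and in the mesothelial-like class 1 cluster held most EWAT and NWAT nuclei, 2 others the MWAT nuclei, and 2 more the HWAT nuclei (3410 of 3417 and 628 of 708 nuclei of these were from HWAT).

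In adipocyte-like nuclei 9 of 58 members were highest in 1 depot (15.5%), where 6.8% of 16829 genes were, and 3 were lowest (5.17%), where 7.94% were. The median ratio of the highest to the next depot was 1.26 over the members and 1.16 over all genes. MWAT held 5 of the 9. Slit2 was at 8.32, 14, 85.1, 4.30 and 5.02 CPM, so MWAT was 6.07 (5.25 to 7.04) times EWAT. Epha7 (4.49 CPM in MWAT, at most 0.832 elsewhere), Robo2 (4.49, at most 0.454), Epha4 (2.59, at most 0.846) and Ntn1 (9.15, at most 4.28) were the others. Smooth muscle markers also stood highest in MWAT adipocyte-like nuclei, at 511 CPM against 38.8 to 49.0 CPM elsewhere, and MWAT smooth muscle-like nuclei held 481 CPM of Slit2 and 268 CPM of Epha7. The adipocyte-like level was 3.29% of the smooth muscle-like level for these markers, 1.68% for Epha7, 4.52% for Ntn1, 5.96% for Epha4 and 17.7% for Slit2. With the smooth muscle profile subtracted in that share, the 2-fold MWAT differences of Epha7, Ntn1 and Epha4 were lost, and with free RNA subtracted the MWAT levels of these genes and of Robo2 were 0. Slit2 stayed at 5.11 to 6.68 times the next depot over all settings tried.

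HWAT adipocyte-like nuclei had the lowest Slit3, at 198 CPM where the other depots had 649 to 1966, 3.28-fold below MWAT. Sema6d, the transmembrane ligand of Plxna1 and Plxna4, was at 35.8, 53.0, 31.4, 30.8 and 8.98 CPM, and Sema6a at 5.98, 7.29, 8.11, 2.55 and 0.793 CPM, the HWAT value on 3 counts. Nrp2 was highest there, at 65.3 CPM against 23.6 in MWAT and 4.16 to 5.90 in the others. Most HWAT adipocyte-like nuclei lay in a cluster led by Ucp1 and Cidea, genes of thermogenic fat, and without the 263 nuclei of its thermogenic-like sub-cluster the ratio of Nrp2 to the next depot was 0.813. Robo1 and Unc5b were highest in EWAT (11.5 and 2.77 CPM, 2.02 and 2.18 times NWAT, the former under 2 times in 5 of 14 settings), and Sema6b in SWAT (22.1 CPM, 2.14 times HWAT).

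In mesothelial-like nuclei 6 of 56 members were highest in 1 depot (10.7%), where 6.05% of 15125 genes were, and 11 were lowest (19.6%), where 5.96% were. The median ratio of the highest to the next depot was 1.33 over the members and 1.17 over all genes. All 6 were highest in MWAT. Slit2 was at 100, 286, 40.2 and 19.6 CPM in EWAT, MWAT, NWAT and HWAT, Sema3e at 7.65, 61.2, 11.2 and 10.1 CPM, and Sema6a, a transmembrane semaphorin, at 76.2, 362, 117 and 35.1 CPM. The MWAT level was 2.84 (2.52 to 3.22), 5.46 (3.60 to 8.65) and 3.10 (2.71 to 3.55) times the next depot. Epha5, Epha7 and Robo2 were low throughout (at most 16.8, 8.30 and 14.1 CPM), and with free RNA subtracted the MWAT level of Epha7 was 0 and the ratio of Robo2 was 1.36. Epha7 fell under 2 times in 5 of 13 settings. Smooth muscle markers were at 685 CPM in MWAT mesothelial-like nuclei and at 108 to 172 in EWAT, NWAT and HWAT; the level of Slit2 there was 59.4% of the smooth muscle-like level, that of the markers 4.41%.

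Of the 11 lowest, 9 were lowest in HWAT. Epha3 was at 28.2, 52.9, 38.8 and 1.33 CPM, 21.1-fold below the next depot in HWAT. The netrins Ntn1 (118, 77.1, 86.4 and 13.5 CPM) and Ntn4 (65.5, 32.8, 46.2 and 5.19 CPM) were 5.72-fold and 6.32-fold lower. Sema3a and Sema3c were 3.22-fold and 2.32-fold lower, and Sema5a, Ephb1, Sema6a and Slit2 2.05- to 2.51-fold, the difference of Slit2 falling under 2-fold in 5 of 12 settings. Mesothelial markers in these HWAT nuclei summed to a level between those of MWAT and NWAT, in the range of 5908 to 7556 CPM over the 4 depots. The part of the separate HWAT clusters in these values was not tested. Unc5c and Sema3d were lowest in EWAT, at 0.918 and 24.8 CPM.

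**Figure D5:**
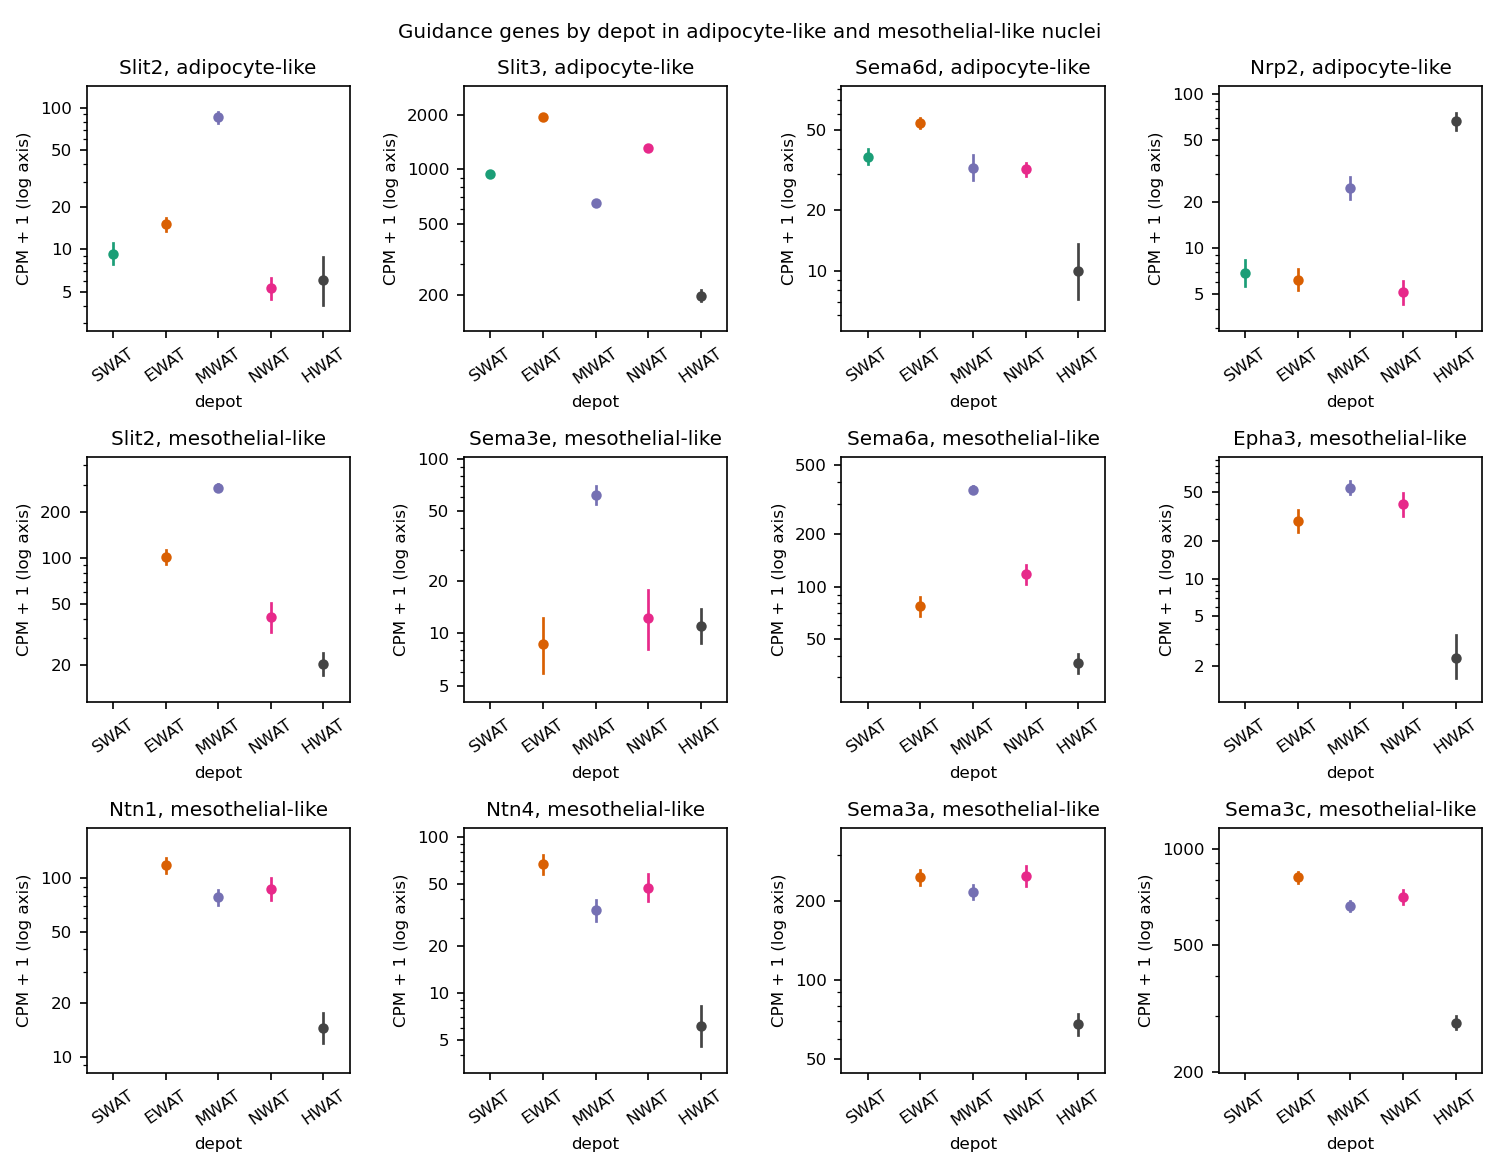
CPM + 1 (log axis) by depot in adipocyte-like (4 panels) and mesothelial-like nuclei (8 panels), 1 point per library with 95% Poisson intervals of counting error; SWAT has no mesothelial-like point. Slit2 is highest in MWAT in both classes, Slit3 and Sema6d are lowest in HWAT adipocyte-like nuclei, and Epha3, Ntn1, Ntn4, Sema3a and Sema3c are lowest in HWAT mesothelial-like nuclei.

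In FAP-like nuclei 3 of 43 members were highest (6.98%, against 3.7% of genes) and 4 lowest in 1 depot (9.30%, against 3.58%), with a median ratio of 1.20 over the members and 1.16 over all genes. Efna5 was at 742 CPM in MWAT, 2.24 (2.01 to 2.50) times NWAT, Robo2 at 80.9 CPM in MWAT, 4.59 (2.30 to 10.4) times HWAT, and Plxna4 at 62.2 CPM in EWAT, 3.37 (2.05 to 5.89) times MWAT. Smooth muscle markers in FAP-like nuclei stood at 794 CPM in MWAT and at 28.9 to 101 CPM elsewhere. With the smooth muscle profile subtracted the MWAT ratios of Efna5 and Robo2 were 2.31 and 4.73. Efna5 fell under 2 times in 1 of 13 settings. Of 825 MWAT FAP-like nuclei, 725 lay in the unnamed sub-cluster with Robo2 among its leading genes. The unnamed MWAT clusters with Kcnn3 among their leading genes held 4626 CPM of Robo2 and 1453 CPM of Efna5. What either group does to the MWAT FAP-like levels was not tested. In EWAT 50 FAP-like nuclei lay in an unnamed sub-cluster of 51 led by Plxna4, while committed-like and Dpp4-like nuclei of EWAT had 16.2 and 17.8 CPM of it. Epha3 was lowest in NWAT (15 CPM, 3.53-fold below HWAT), Sema3a in MWAT (16.4 CPM, 2.63-fold below EWAT), and Plxnb2 and Nrp2 in SWAT (11.3 and 16.3 CPM). With classes set nucleus by nucleus the orders of Plxna4 and Sema3a reversed, and with the smooth muscle profile subtracted that of Nrp2 did. In endothelial-like nuclei 3 of 48 members were highest (6.25%, against 2.9%) and 3 lowest (6.25%, against 2.85%), with a median ratio of 1.22 over the members and 1.13 over all genes. Sema3d was highest in MWAT (113 CPM, 2.24 times EWAT) and lowest in NWAT (5.27 CPM), and lymphatic-like nuclei numbered 419 in MWAT and 18 in NWAT; without that sub-cluster both orders reversed. Slit3 was lowest in HWAT (51.2 CPM, 3.76-fold below MWAT) and Ephb1 in SWAT (5.78 CPM, a 2-fold difference lost in 6 of 14 settings), while Epha7 in HWAT (23.8 CPM) and Slit2 in MWAT (32.6 CPM) were highest. Capillary-like nuclei, the sub-type with most Slit3, were 848 of 2183 in SWAT, 1084 of 2571 in EWAT and 486 of 2201 in MWAT. They were 944 of 1879 in NWAT and 21 of 405 in HWAT. The part of this mix in the Slit3 level was not tested. Subtracting free RNA or the smooth muscle profile took the MWAT level of Slit2 to 0.

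In macrophage-like nuclei 5 of 36 members were highest (13.9%, against 3.18%) and 8 lowest (22.2%, against 4.33%), with a median ratio of 1.3 over the members and 1.14 over all genes. HWAT held 7 of the 8 lowest, and 63.1% of its macrophage-like nuclei lay in a cluster led by Fcna, Lyz2, Marco and Timd4, of whose 833 nuclei 747 were from HWAT. In HWAT, Sema4a was at 58.6 CPM against 155 to 222 elsewhere, Sema6a at 7.38 against 32.0 to 68.3, Slit1 at 3.69 against 12.6 to 22.9, and Nrp1 at 251 against 539 to 639 CPM. Plxnd1, Efna5 and Slit3 were 2.04- to 2.16-fold lower. With TMM scaling, which corrects for differences in composition between libraries, 4 of the 8 lowest calls were left. The 2-fold difference was lost for Efna5 in 4 of 11 settings, for Slit3 in 3 of 11 and for Nrp1 in 2 of 12. For Efna5 and Slit3 the 11 settings leave out free RNA subtraction. Under it another depot fell to 0, so no ratio was formed and HWAT was not called lowest. The ephrin Efnb2 and the receptor Epha2 were highest in HWAT, at 48.9 and 33.7 CPM, 3.65 (2.46 to 5.54) and 5.34 (3.08 to 9.82) times NWAT. Plxna4 was lowest in SWAT, at 30.7 CPM against 91.4 to 196 CPM. Sema3a, Sema3c and Slit2 were highest in MWAT macrophage-like nuclei at 10.8, 28.7 and 18.0 CPM, where smooth muscle markers stood at 747 CPM and at 18.0 to 39.3 in the remaining libraries. With free RNA subtracted the MWAT levels of these 3 genes were 0.

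Classes outside the 6 held high levels of a few members. MWAT neuron-like nuclei had 842 CPM of Epha5 and 343 CPM of Epha6, where no compared class exceeded 16.8 and 3.92 CPM. Schwann or glial-like nuclei of SWAT and MWAT had 128 and 287 CPM of Sema3e, 205 and 90.6 CPM of Sema3b and 59.9 and 83.0 CPM of Plxnb3. Interstitial cell of Cajal-like nuclei of MWAT, the pacemaker cells of gut muscle, had 334 CPM of Epha7, 413 CPM of Sema3a and 482 CPM of Ntn1. These genes were chosen after their values were seen.

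Of the wider pathway, 4 lists of co-receptors and signalling genes were compared in the same way. Among 18 co-receptors and other cues with enough counts, 1 was led by a class, where 4.31% of all genes were: Neo1, a netrin and repulsive guidance receptor, was at 4.61 times the next class or more in mesothelial-like nuclei. In the semaphorin list 1 of 16 genes each was led by adipocyte-like, FAP-like and macrophage-like nuclei, in the Eph list 2 of 13 by macrophage-like nuclei, and in the Slit and netrin list 0 of 17. By depot, 0 to 1 gene of each list was highest in 1 depot in any class. Over all genes this share was 2.9% (endothelial-like) to 6.8% (adipocyte-like). The most called lowest were 5 of 16 co-receptors in adipocyte-like nuclei, where 7.94% of all genes were.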

How the data were processed

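Deposited values were raw UMI counts per gene and nucleus, which the authors made with Cell Ranger (version 6.0.1 per the file headers; genome mm10 per the submitters' processing notes); annotation release and intron counting were not given in the sources used here. Nuclei with at least 200 genes and at most 10% mitochondrial UMIs were kept (149 of 76040 removed), and likely doublets removed at 0.8% per 1000 nuclei (9642). The 66249 nuclei were clustered together on 2000 variable genes without the members (40 components, 20 neighbours, Leiden resolution 1, no integration), and 51 of 56 clusters were named from marker lists (mean log2 fold at least 1, lead 0.5). Sub-clusters used resolution 0.5. Counts were summed per class and library to CPM (scaled to 1e6), and a level under 3 counts was set to 3 counts as the lower side of a ratio. Intervals are exact Poisson or conditional binomial at 95%; all cover counting error only. The call rules were tried on simulated data with counting error only. These data held no variation between mice and no free RNA, so they say nothing on either.

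Members and lists were chosen with earlier results of these data known. The text names every class-led member, up to 8 members highest and 5 lowest in a depot per class by ratio, and listed textbook pairs; other members were named after their values were seen, and the FAP sub-types were added then. TMM factors came from edgeR 4.0.16 in R 4.3.3, and the rest was computed in Python 3.11.15 (leidenalg 0.10.2, scipy 1.17.1, numpy 2.4.6, pandas 2.3.3). Positions of genes were read from GENCODE vM21 (66 of 66 members matched) and promoters from RefSeq (55 of 66). Alternatives are listed in the closing section.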

Additional observations from a re-analysis of the deposited data

How the results depend on the processing

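Of 777 values of called members under alternative settings, 709 kept their 2-fold difference and 21 reversed. By construction, some settings could not weaken a ratio: at least 100 counts (59 values), at least 100 nuclei (59) and HWAT left out (31). The same holds for each library left out in turn (4 values each). Free RNA subtraction is not counted where another depot fell to 0 and no ratio was formed. This was so for the lowest calls of Efna5 and Slit3 (macrophage-like), Sema6a (adipocyte-like) and Nrp2 (FAP-like). The number of members led by 1 class, 4 as reported, was 7 with members kept in the clustering, 7 with doublets removed at 1.6% per 1000, 7 with free RNA subtracted, 8 at 2% mitochondrial UMIs, 9 at 500 genes, 10 with classes set per nucleus and 12 with at least 100 nuclei per class; leaving out 1 library gave 4 to 10. With HWAT left out, a setting chosen after seeing the data, as were those on smooth muscle and lymphatic-like nuclei, the highest calls were 6 in endothelial-like and 3 in macrophage-like nuclei, and the lowest calls 8 in FAP-like, 1 in macrophage-like and 6 in mesothelial-like nuclei. With free RNA subtracted, the highest calls were 1 (endothelial-like) and 2 (macrophage-like); with the MWAT smooth muscle profile subtracted they were 1 and 3; at 100 counts the macrophage-like number was 1. With no doublets removed, 1 member was highest in FAP-like and 5 lowest in adipocyte-like nuclei; at 500 genes the latter was also 5; at 1.6% doublets 5 were lowest in endothelial-like nuclei. TMM factors ran from 0.866 (HWAT adipocyte-like) to 1.06, and TMM scaling left 4 lowest calls in macrophage-like nuclei. The share over all genes was not computed for any of these alternative settings, so their numbers have no background beside them.

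Free RNA subtraction took these MWAT levels to 0: Epha4, Epha7, Ntn1 and Robo2 (adipocyte-like), Epha7 (mesothelial-like), Sema3a, Sema3c and Slit2 (macrophage-like) and Slit2 (endothelial-like). Smooth muscle subtraction took to 0 Epha7 (adipocyte-like, mesothelial-like), Sema3a (macrophage-like) and Slit2 (endothelial-like, macrophage-like); the ratio was 0.602 for Ntn1 (adipocyte-like) and 1.03 for Nrp2 in SWAT FAP-like nuclei. With classes set per nucleus, the ratios of Plxna4 (EWAT) and Sema3a (MWAT) in FAP-like nuclei were 0.676 and 1.38. Nrp2 in HWAT adipocyte-like nuclei was 0.813 without the thermogenic-like sub-cluster. Without the lymphatic-like sub-cluster, Sema3d in endothelial-like nuclei was 0.449 (MWAT) and 1.89 (NWAT). Beyond what each subtraction does by its construction, the cause was not tested.

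Depth limited the small classes: 3 counts were 41.7 CPM in HWAT pericyte-like nuclei. No paired analysis was possible because each depot is 1 pooled library.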
